A study of Mus musculus with 6 samples.

Results

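The miR-30 family was followed in cultures of mouse vascular smooth muscle cells (VSMCs), which contract the artery and can turn proliferative or bone-like, grown with or without tumour necrosis factor alpha (TNF-α), an inflammatory cytokine. Members were the array entries, called reporters, named mmu-miR-30a, mmu-miR-30b, mmu-miR-30c, mmu-miR-30d, mmu-miR-30e, mmu-miR-30a* and mmu-miR-30e* (mmu for mouse, left out below), which makes 7 of the 1078 reporters. In these older miRBase names an asterisk stands for the minor arm of the precursor hairpin. TNF-α cultures (n = 3) were compared with untreated cultures (n = 3), all of C57BL/6 VSMCs from the abdominal aorta at 8 weeks of age and taken after repeated passaging. The TNF-α dose, its duration and the number of mice behind each culture are unstated in the labels. Each array gave 1 median density per reporter, a brightness on a linear scale that still contains background. Densities of different reporters cannot be set against each other, because each probe binds with its own strength.

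A microRNA (miRNA) guides a silencing complex to messenger RNAs that pair with its seed, bases 2 to 8 from its 5′ end. The guides miR-30a to miR-30e share one seed and therefore many predicted targets, and come from 6 hairpin genes in 3 loci. In smooth muscle and heart the family is best known for repressing Runx2, the transcription factor of bone formation that appears in calcifying arteries, and Ctgf, a matrix-inducing growth factor. By name and neighbourhood in RefSeq, Mir30b lies beside Mir30d on chromosome 15, Mir30a beside Mir30c-2 on chromosome 1, and Mir30e beside Mir30c-1 within Nfyc on chromosome 4. Nfyc encodes a subunit of the CCAAT-binding factor NF-Y. Both Mir30c genes give the same miR-30c, so its reporter reads 2 loci together.

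The sequences below show what the reporters had to tell apart. They are RefSeq's (GRCm38.p6), and were found for miR-30a, miR-30c, miR-30e, both starred arms and miR-384-5p. Capitals mark bases 2 to 8.
miR-30a (chr1:23272274-23272295, plus strand): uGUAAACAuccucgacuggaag
miR-30e (chr4:120772660-120772681, minus strand): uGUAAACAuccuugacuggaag
miR-30c (chr1:23291714-23291736, plus strand, and chr4:120769584-120769606, minus strand): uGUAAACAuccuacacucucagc
miR-384-5p (chrX:105344332-105344354, minus strand): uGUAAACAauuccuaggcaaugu
miR-30a* (chr1:23272315-23272336, plus strand): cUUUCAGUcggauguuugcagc
miR-30e* (chr4:120772618-120772639, minus strand): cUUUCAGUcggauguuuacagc
Counted from the 5′ end, miR-30a and miR-30e are identical at 21 of 22 bases and differ by C13U. miR-30a and miR-30c are identical at 17 of the first 22, with the first difference at C13A. The starred arms miR-30a* and miR-30e* likewise differ at 1 of 22 bases, G18A, and carry another seed than the guides. miR-384-5p, from a gene on the X chromosome, carries the family's seed under another name. How far a probe for one member binds another was not tested.

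The hairpin of Mir30a shows how a guide and its starred arm come from one transcript. Capitals mark miR-30a, towards the 5′ end, and miR-30a*, towards the 3′ end.
Mir30a (chr1:23272269-23272339, plus strand): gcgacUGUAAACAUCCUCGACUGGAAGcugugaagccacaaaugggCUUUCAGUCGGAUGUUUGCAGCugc

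The sets of arrays differed in brightness as a whole. The background peak, the commonest density of dim reporters, was 80.9 to 89.7 on TNF-α arrays and 66.3 to 75.6 on control arrays. A background limit was set at that peak plus 3 SD of the values below it, and 242 to 256 reporters exceeded it on TNF-α arrays against 306 to 344 on control arrays. Both measures separated the groups, so an effect of TNF-α and a difference in how the arrays of each group were run cannot be told apart. The labelled cell type was checked with marker miRNAs. The smooth muscle miRNAs miR-143 and miR-145 exceeded the limit on all 6 arrays, whereas the minor arm miR-143* did so on none and miR-145* on 1 control array. miR-145* was called lower (-0.51 ± 0.08 on the log2 scale, limma adjusted p = 0.00496). Its mean density was 76.7 with TNF-α, below the background peak of every TNF-α array, and 92.7 in controls. The call is thus not a measured change in level, and its part in the results was not tested. Endothelial miR-126-3p exceeded the limit on all 6 arrays at a low density of 134 ± 15.2 with TNF-α and 137 ± 19.3 in controls (SD, n = 3 each). The other endothelial marker, miR-126-5p, exceeded the limit on no array. None of 6 epithelial markers exceeded it on any array, nor did any of 6 blood cell markers on TNF-α arrays and at most 1 on control arrays. Of 4 striated muscle markers on the arrays, 3 were tested. miR-206 exceeded the limit on all 6 arrays and fell (-0.49 ± 0.07 on the log2 scale, limma adjusted p = 0.00339). Neither miR-133a (-0.04, limma adjusted p = 0.76) nor miR-133b (-0.06, limma adjusted p = 0.674) was called. As miR-133a exceeded the limit on no array and miR-133b only on 2 control arrays, neither value is a measured change in level. The summed density of the 4 above the background peak was 109.5 to 159 with TNF-α and 211 to 233 in controls. This sum mainly repeats miR-206, whose mean density was 189 with TNF-α and 257 in controls, because the other markers were near background. Its part in the results was not tested.

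Across the family, 2 guides were called higher with TNF-α, 1 was called lower and 2 did not pass the test. miR-30d was 1.63-fold and miR-30a 1.18-fold higher, whereas miR-30b was 1.28-fold lower. The call of miR-30a was lost under several other settings, and its log2 change was 0.0012 in the authors' processed intensities. Densities were corrected for background with an offset of 50, quantile normalized and tested in limma over 642 reporters, at an adjusted p threshold of 0.05. Among all of these 22.7% were called, 12.9% as higher and 9.81% as lower. The 3 calls among 7 members stand beside that share, and beside 34.0% of the 209 tested reporters above the background limit on every array, a group to which all 5 guides belong. The median change was -0.07 over the 5 guides, -0.01 over the 7 members and 0.01 over all tested reporters, on the log2 scale. Fewer cells that make a miRNA and less of it per cell cannot be told apart in these RNA samples.

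**Figure D1:**
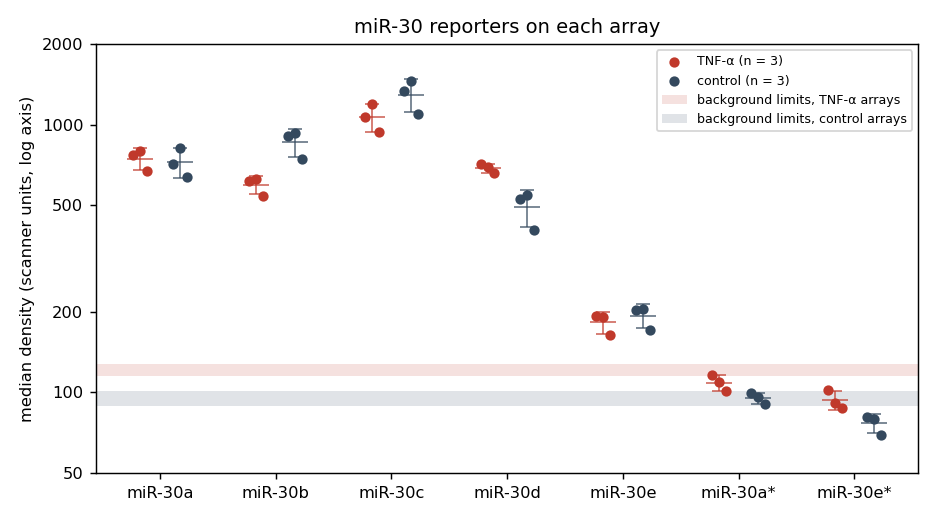
Median density of the 7 miR-30 reporters on each array (log axis, scanner units), with TNF-α arrays left of control arrays. Points are arrays, bars the mean and SD (n = 3), and bands the range of the background limits. The groups do not overlap for miR-30b and miR-30d among the guides, and the starred arms lie near or below the limits of their own arrays, with miR-30a* above the limit on 2 control arrays.

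miR-30d, which represses the glycosyltransferase Galnt7 in human melanoma cells, had the largest change of the family. Its density was 709.9, 696 and 659 on the TNF-α arrays, against 526, 548 and 404 on the control arrays. Every TNF-α culture was brighter than every control, and control replicate 3 was the dimmest of all. The background was also higher on every TNF-α array, and the densities of miR-30a* and miR-30e*, near background, separated in the same direction. How many of all reporters separate in plain density was not counted. The means were 688 ± 26.4 with TNF-α and 492 ± 77.5 in controls (SD, n = 3 each), a ratio of 1.40. After normalization the change was 0.71 ± 0.07 on the log2 scale (SE, limma adjusted p = 0.000979), with a 95% interval of 0.55 to 0.87. Its normalized values did not overlap between groups, which held for 40.0% of all tested reporters. The call held under all 19 alternatives, at 0.43 to 0.76. The lowest of these values came from scaling arrays to the median of detected reporters, and miR-30d was 0.46 in the authors' processed intensities.

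miR-30b, which represses Runx2 in human coronary artery smooth muscle cells, moved the opposite way. Its density was 614, 627 and 542 on the TNF-α arrays, against 907, 931 and 741 on the control arrays. All TNF-α values lay below all control values, although the TNF-α arrays had the higher background. How many of all reporters do so was not counted. The means were 594 ± 45.9 and 859.6 ± 103 in TNF-α and control cultures (SD, n = 3 each), a ratio of 0.691. The change was -0.36 ± 0.07 on the log2 scale (SE, limma adjusted p = 0.00837), with a 95% interval of -0.51 to -0.21. It remained called as lower under all 19 alternatives, at -0.62 to -0.32. The fall was larger in the processed table (-0.62), with median scaling (-0.59) and with no normalization (-0.54) than with quantile normalization. Those settings also move the whole array: over all tested reporters the median was 0.14 for unnormalized values, 0.09 after median scaling and -0.12 for the processed table. Relative to the unnormalized median, miR-30b was -0.68 and miR-30d 0.35. Median scaling shifts every reporter of an array equally, so it returns the same values and is no separate check. Against the median of the authors' intensities, miR-30b was -0.50 and miR-30d 0.58. The unnormalized median covers 642 reporters, of which only 209 exceeded the background limit on every array.

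The opposed changes of these neighbours appeared within each array, where a common scale cancels. The density of miR-30d divided by that of miR-30b was 1.16, 1.11 and 1.22 on the TNF-α arrays and 0.580, 0.588 and 0.545 on the control arrays. The lowest TNF-α ratio was thus well clear of the highest control ratio. The ratio averaged 1.16 ± 0.053 with TNF-α and 0.571 ± 0.023 in controls (SD, n = 3 each), a 2.03-fold difference. After subtraction of each array's background peak it was 1.19 ± 0.063 against 0.532 ± 0.028, a 2.23-fold difference. In the processed table it was 1.19 ± 0.063 against 0.538 ± 0.031. Because the probes differ, a ratio near 1 does not mean equal amounts of the miRNAs. The ratio shows unequal change, and not which of the neighbours changed.

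**Figure D2:**
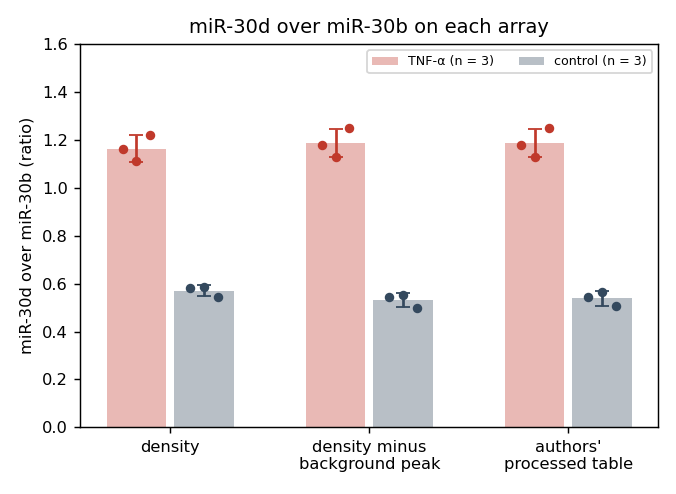
miR-30d density over miR-30b density on each array, from the densities, after subtraction of the background peak, and from the authors' processed table. Bars are means and error bars SD (n = 3), with TNF-α left of control. The TNF-α arrays lie at 1.11 to 1.25 and the control arrays below 0.59 in all 3 versions.

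On the normalized log2 scale, miR-30d minus miR-30b was 0.33, 0.29 and 0.29 with TNF-α, against -0.70, -0.80 and -0.79 in controls. The difference between groups was 1.07, or 2.09-fold, with an exact two-sided permutation p of 0.1, the smallest that 3 arrays against 3 allow. The same difference was also tested by subtracting miR-30b from every reporter on the same array and fitting limma across the remaining 641. There miR-30d exceeded miR-30b by 1.07 ± 0.08 (SE, limma adjusted p = 1.04e-05), with a 95% interval of 0.89 to 1.24. This fit called 473 reporters (73.8%), of which 465 (72.5%) were higher relative to miR-30b, so a call by itself says little about a member. Across 14 alternatives for the array difference and 19 for the fit, the value stayed at 0.94 to 1.15, and the limma call held in all 19. The other filters, the other variance model and the block cannot change this value, only its test. Median scaling cancels within an array, so it repeats the value found without normalization.

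miR-30a, which represses the autophagy protein beclin 1 in human cells, passed the test as higher, but the call did not hold under other processing. Its density was 771, 799 and 669.6 on the TNF-α arrays, against 711, 821 and 637 on the control arrays. These values overlapped, with means of 746 ± 67.9 with TNF-α and 723 ± 92.4 in controls (SD, n = 3 each). Quantile normalized values did not overlap, and the change was 0.24 ± 0.06 on the log2 scale (SE, limma adjusted p = 0.0318), with a 95% interval of 0.09 to 0.38. None of 3 other scalings called it, at 0.044 for unnormalized values, -0.0102 for median scaling and 0.0012 for the processed table. Against the median of all tested reporters in each, miR-30a was -0.10, -0.10 and 0.12, so its direction relative to the array was not the same. With cyclic loess it was 0.19 and with an offset of 8 it was 0.25, again not called. With the replicate number as a block the same change of 0.24 had a limma adjusted p of 0.0589. The call was also lost without control replicate 1 (0.20), 2 (0.25) or 3 (0.24) and without TNF-α replicate 1 (0.24) or 2 (0.23), and kept without TNF-α replicate 3 (0.26).

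miR-30c represses Ctgf in heart cells of the rat and, like miR-30b, Runx2 in human coronary artery smooth muscle cells. Its density was 1070, 1192 and 939.6 on the TNF-α arrays, against 1339, 1449 and 1094 on the control arrays. TNF-α replicate 2 lay above control replicate 3, so the groups overlapped, although the means of 1067 ± 126 and 1294 ± 182 (SD, n = 3 each, TNF-α and control) gave a ratio of 0.825. The change was -0.07 ± 0.09 on the log2 scale (SE, limma adjusted p = 0.615), with a 95% interval of -0.28 to 0.13 that does not exclude a change in either direction. It passed as lower in the processed table (-0.34) and with median scaling (-0.33), and was 0.021 without control replicate 2. The processed table called 81 of its 285 tested reporters lower, and its median change was -0.12. Against the median of all tested reporters, miR-30c was -0.22 in that table and -0.42 with median scaling. In the processed table the means were 983 ± 80.9 with TNF-α and 1251 ± 107 in controls (SD, n = 3 each).

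miR-30e, which represses Igf2 in mouse aortic smooth muscle cells, was read closer to background. Its density was 192, 192 and 163 on the TNF-α arrays, against 204, 205 and 171 on the control arrays. These lie at 2.02 to 2.14 times the background peak with TNF-α and at 2.58 to 2.83 times in controls. The densities overlapped, whereas the normalized values did not. The change was -0.16 ± 0.07 on the log2 scale (SE, limma adjusted p = 0.132, unadjusted p = 0.046), with a 95% interval of -0.31 to -0.0036. It passed as lower in the processed table (-0.30), at 99.96 ± 10.3 with TNF-α and 130.3 ± 8.29 in controls (SD, n = 3 each), and under no other alternative. Against the median change of that table, -0.12, miR-30e was -0.18.

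The starred arms were near background. miR-30a* had a density of 116, 109 and 101 on the TNF-α arrays, against 99.2, 95.8 and 90.2 on the control arrays. Every TNF-α value was above every control value, but so was the background, and miR-30a* exceeded the background limit on 2 control arrays and no TNF-α array. Its normalized change was -0.01 ± 0.07 (SE, limma adjusted p = 0.933), and no fold is given. miR-30e*, which represses the NF-kB inhibitor IkBα in human glioma cells, read 102, 91.4 and 87.3 on the TNF-α arrays and 81.1, 79.7 and 69.4 on the control arrays. It exceeded the limit on no array, so its normalized change of 0.05 ± 0.07 (SE, limma adjusted p = 0.697) is not a measured level. Within a hairpin, the starred arms therefore add no usable reading of miR-30a or miR-30e.

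**Figure D3:**
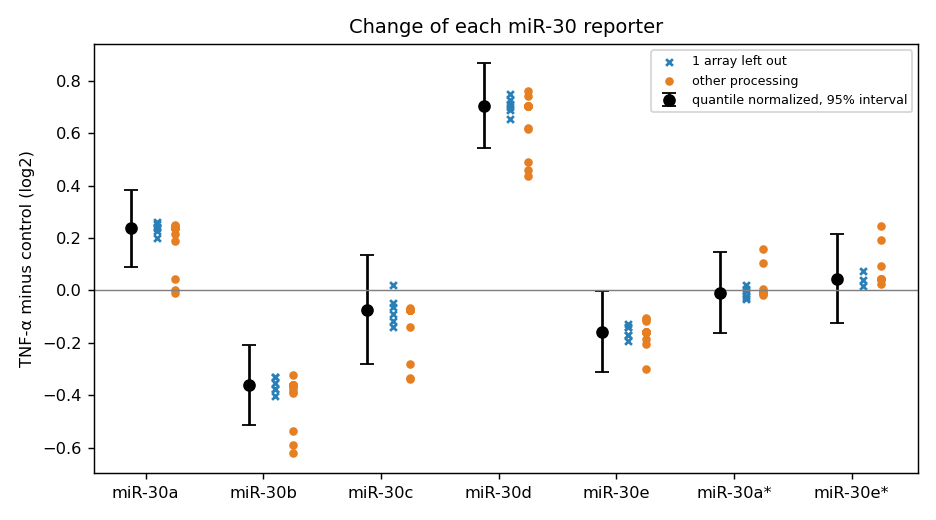
Change of each miR-30 reporter, TNF-α minus control (log2). Black points are the quantile normalized changes with 95% intervals (n = 3 per group), crosses the values with 1 array left out, and orange points the other processing alternatives in which the reporter was tested. miR-30d stays above 0.43 and miR-30b below -0.32 throughout, while miR-30a runs from -0.0102 to 0.26.

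The spread within an array was of the same order as that between arrays. The deposited standard deviation of a reporter on an array, whose basis the files do not state, was 5.95% to 9.99% of the density for miR-30d and 6.16% to 10.2% for miR-30b. Between arrays of a group the density of miR-30d varied by 3.84% with TNF-α and 15.7% in controls, and that of miR-30b by 7.72% with TNF-α and 12% in controls. All 5 guides were dimmest on replicate 3 of both groups. For miR-30e* the standard deviation within an array reached 21.0% of the density.

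Among the 10 pairs of guides, which share members, 9 had within-array differences that did not overlap between TNF-α and control arrays. Such separation was common, at 53.1% of all pairs among the 209 reporters above the background limit on every array and 41.7% of all pairs tested. Each of the 9 had an exact permutation p of 0.1, or 0.109 after Benjamini-Hochberg adjustment over 12 pairs, and with 3 arrays against 3 none can pass 0.05. The remaining 2 pairs set a guide against its starred arm. They are drawn but not read, because the starred arms were above the limit on no TNF-α array, and miR-30a minus miR-30a* changed sign between normalized values (0.25) and plain densities (-0.14). After miR-30d minus miR-30b, the largest differences were miR-30d minus miR-30e (0.86) and miR-30c minus miR-30d (-0.78), both of which involve miR-30d. miR-30a minus miR-30b changed by 0.60 and miR-30a minus miR-30d by -0.47, which puts miR-30a between the opposed neighbours. miR-30c minus miR-30e changed by 0.08 (exact permutation p = 0.5) and overlapped. miR-30a minus miR-30e, the pair that differs at 1 base, changed by 0.39. The 2 groups lay apart there, at 2.20 to 2.22 with TNF-α and 1.78 to 1.85 in controls, and the value kept its sign under 14 alternatives at 0.15 to 0.45.

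**Figure D4:**
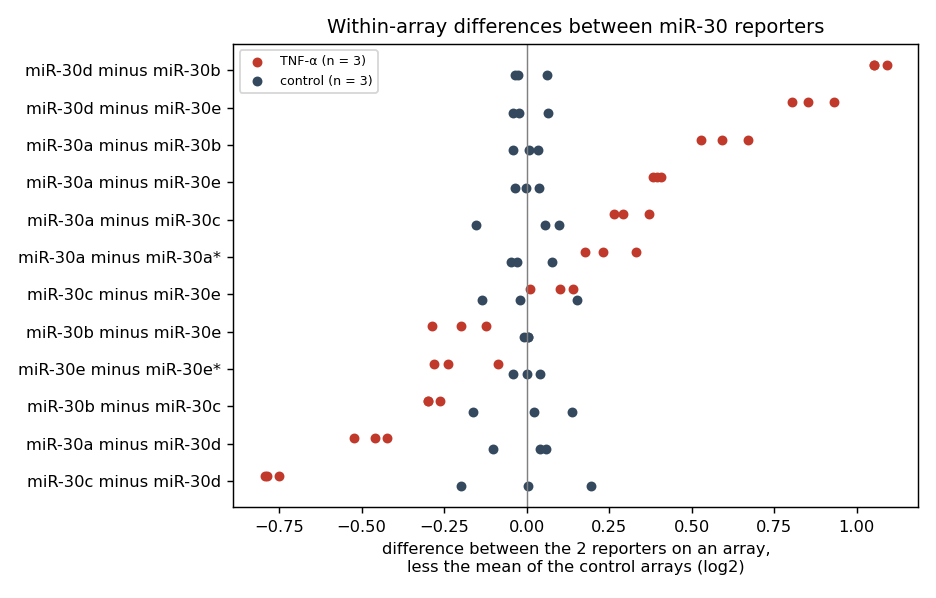
Difference in normalized log2 value between 2 miR-30 reporters on each array, less the mean of that difference on the control arrays. TNF-α arrays are drawn above control arrays in each row (n = 3 each). The groups overlap for miR-30c minus miR-30e, the rows with a starred arm rest on readings near background, and the groups lie farthest apart for miR-30d minus miR-30b at 1.07.

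Relative to miR-30b in the limma fit, the other guides were all called higher. miR-30a exceeded miR-30b by 0.60 ± 0.08 (SE, limma adjusted p = 0.000146), miR-30c by 0.29 ± 0.09 (limma adjusted p = 0.0163) and miR-30e by 0.20 ± 0.08 (limma adjusted p = 0.0423). Against the 72.5% of reporters called higher in this fit, such calls restate that miR-30b fell below most of the array. The call of miR-30a held under all 19 alternatives, at 0.53 to 0.64. That of miR-30c was lost with an offset of 8 (0.31), without control replicate 1 (0.19) and without control replicate 3 (0.26). The call of miR-30e was lost under 9 of 19 alternatives. Only miR-30d and miR-30b, which differed by 1.07, compare neighbouring genes directly. miR-30a differed from miR-30c by 0.31, and miR-30c from miR-30e by 0.08, the last within the spread between arrays. Because the miR-30c reporter reads both of its loci together, neither of these values is a difference within a shared locus.

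The remaining arms of these hairpins added no reading above background. miR-30b*, miR-30c-1*, miR-30c-2* and miR-30d* exceeded the limit on no array, and neither did miR-384-5p, the other miRNA with the family's seed. miR-30d* had 80.7, 86.6 and 85.5 with TNF-α and 77.1, 78.7 and 58.9 in controls, and miR-30b* had 89.3, 87.4 and 65.0 with TNF-α and 70.2, 86.7 and 73.1 in controls. The opposed changes of miR-30d and miR-30b could therefore not be looked for in the opposite arms of their hairpins.

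The profiles most like those of miR-30d and miR-30b over the 6 arrays were picked by the smallest root mean square difference of centred log2 values, among 208 reporters above the background limit on every array. Nearest to miR-30d were miR-690 (0.06), miR-34a (0.08) and miR-29b (0.09), where the median reporter was at 0.37. They rose by 0.63 ± 0.07, 0.55 ± 0.07 and 0.60 ± 0.08 (SE, log2, limma adjusted p = 0.00114, 0.00227 and 0.00227). Nearest to miR-30b were miR-1894-3p (0.04), miR-211* (0.05) and miR-188-5p (0.05), against a median of 0.22. They fell by 0.38 ± 0.07, 0.28 ± 0.07 and 0.39 ± 0.08 (SE, log2, limma adjusted p = 0.00899, 0.0198 and 0.0126). All were picked on these same arrays by closeness to a profile that differs between the groups. Their directions and p-values therefore follow from the picking and are no separate result.

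Other miRNAs known to repress Runx2 or Ctgf were read beside the family. Of 12 listed, 10 were tested in limma, 2 rose and 0 fell, with the same counts at an unadjusted p under 0.05. Their median change was -0.04, and the 2 rises compare with 12.9% of all tested reporters called higher. The risers were miR-29b (0.60 ± 0.08, limma adjusted p = 0.00227) and miR-29c (0.43 ± 0.10, limma adjusted p = 0.0175), both also repressors of collagen mRNAs. Of the 12, 5 exceeded the background limit on no array.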

How the data were processed

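Total RNA was poly(A)-tailed, ligated to a tag and stained with Cy5, per the labels' protocols, so each array has 1 colour. The authors deposited a median density and a standard deviation per reporter and array, both linear intensities per the file headers, and a table of processed intensities with a minimum of 0.01 on every array. The sources used here do not state how that table was scaled, or the scanner and its software.

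Densities were corrected with normexp (offset 50), taken to log2 and quantile normalized in limma 3.58.1 under R 4.3.3. Quantile normalization gives equal ranks equal values, so normalized spreads can be small. Reporters reaching 32 before the offset on at least 3 arrays were tested (642 of 1078), with group as the only term, two-sided, and Benjamini-Hochberg adjustment over all tested. Errors are the model's SE, or SD where so marked. The offset scale understates changes. Differences between members were compared by exact permutation tests over arrays. Cultures were independent, per the series' design text.

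The alternatives were 3 other scalings, 2 other offsets, 4 other filters, background-peak subtraction, the processed table, another variance model, a block for replicate number, and leaving out each array in turn. The named miRNAs were the 7 members, the other arms and seed sharers, called members of the Runx2 and Ctgf list and the 3 nearest profiles of miR-30d and miR-30b. Of the marker miRNAs used to check the cell type, those above the background limit on all arrays or called are named, with the minor arm miR-143* beside them. The members and lists were chosen with earlier results of these data known. Group came from the treatment labels. The descriptions give 2 TNF-α cultures the same replicate number, so arrays were numbered in accession order, which is also that of the titles. Deviations of same-numbered arrays correlated at 0.04, 0.02 and 0.15 over 642 reporters, so the numbers were not taken to pair the cultures. The procedure was tested on simulated data, where false calls made up a larger share of calls than the threshold names in every simulated set.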

Additional observations from a re-analysis of the deposited data

How the results depend on the processing

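miR-30d and miR-30b kept their direction and their calls under all 19 alternatives, and 10 of the 12 pair differences kept their direction under all 14 of theirs. These 10 include miR-30e minus miR-30e*, which is not read because miR-30e* exceeded the background limit on no array. The counts over all reporters were 83 higher and 63 lower, and moved to 163 and 41 without normalization, 126 and 60 with median scaling, and 39 and 81 in the processed table. With a filter at 100 they were 38 and 39, with the filter on all 6 arrays 50 and 58, with the background limit as filter 52 and 58, and after peak subtraction 51 and 48. Fewer reporters were tested in these 4. With 1 array left out 37 to 56 were higher and 26 to 47 lower.

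miR-30a was 0.044 without normalization, -0.0102 with median scaling, 0.19 with cyclic loess, 0.25 with an offset of 8, 0.0012 in the processed table and 0.20 to 0.26 with 1 array left out. miR-30c was -0.34 in the processed table and -0.33 with median scaling, both called, and -0.14 to 0.021 with 1 array left out. miR-30e was -0.30 in that table. miR-30a* was 0.16, 0.10 and 0.0069 without normalization, with median scaling and with cyclic loess, and -0.0312 to 0.0222 with 1 array left out. miR-30c minus miR-30e was -0.17 in the first 2 of these, -0.0207 with cyclic loess, -0.0379 in the processed table and -2e-04 to 0.16 with 1 array left out. miR-30a minus miR-30a* was -0.11 without normalization and with median scaling. Relative to miR-30b, miR-30c was 0.31 with an offset of 8 and 0.19 to 0.35 with 1 array left out. miR-30e relative to miR-30b was 0.18 with an offset of 8, 0.19 after peak subtraction, 0.20 with a trended robust variance, and 0.18 to 0.25 with 1 array left out. The cause was not tested.

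With the replicate block, 55 reporters were higher and 48 lower, miR-30a was 0.24 (limma adjusted p = 0.0589) and miR-30e relative to miR-30b was 0.20 (limma adjusted p = 0.0618), neither called. It changed no other call of a member. Not every array correlated best with its own number. Signal over background limits the starred arms and, less so, miR-30e. The number of arrays limits every value.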
